A study of Drosophila melanogaster with 36 samples.

Results

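The genes described are those of the mitochondrial ribosomal proteins of Drosophila melanogaster, taken as every row of the count table whose gene symbol begins with mRpL or mRpS followed by a digit. There were 73 such genes among 16727 in the table, 47 named for the large subunit and 26 for the small one. Of these, 72 had enough counts to be tested, and mRpL53 did not.

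Mitochondria hold their own genome, which in animals encodes a few core subunits of the respiratory chain together with the ribosomal and transfer RNAs needed to translate them. The proteins of the mitochondrial ribosome are all encoded in the nucleus, made in the cytosol and imported. Some descend from bacterial ribosomal proteins and others are found only in mitochondria. Indirect flight muscle (IFM), which powers the wing beat, is packed with mitochondria and relies on oxidative phosphorylation.

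RNA was sequenced from IFM of female flies at 3 weeks of age, pooled from 10 flies for each library. WT flies were Canton-S on a normal diet, HFD flies were Canton-S on a high-fat diet, and Sk2 flies carried a mutation of Sphingosine kinase 2 and ate the normal diet. Each model was kept under ad libitum feeding (ALF) or time-restricted feeding (TRF), in which food was present for the 12 h of light and replaced by agar in the dark. All flies were kept at 22 °C in a light cycle of 12 h, and muscle was collected every 4 h at zeitgeber times ZT3 to ZT23, counted from lights on. The study asked how TRF acts on muscle in a dietary and a genetic model of obesity.

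Each of the 6 groups had 1 library at each time point, so the spread within a group holds the time of day as well as the variation between pools, and p-values measure that spread. The labels give no strain for the Sk2 flies, so the mutation and the background of that stock cannot be told apart. The library of WT-TRF at ZT11 and the one of Sk2-ALF at ZT23 were omitted as outliers, as the study did. So the 2 groups concerned had 5 libraries each and the other groups had 6.

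Total counts ranged from 3329519 to 10132861 in WT libraries, from 7647675 to 30682673 in HFD libraries and from 10870706 to 26410549 in Sk2 libraries, so depth differed with the model. The flight muscle genes Act88F and fln, which define this muscle, were present in every library, at 246 to 9050 and 73.6 to 838 CPM, that is, counts of a gene per 1000000 counts of the library after scaling by the trimmed mean of M values (TMM). Sk2 itself was at 1.11 to 5.48 CPM in Sk2 libraries and 4.95 to 9.76 CPM in WT libraries, ranges that overlap narrowly. Genes of other tissues were also present, led by the yolk protein gene Yp1, which fat body and ovary express, and the fat body lipoprotein gene Rfabg. The summed level of 10 fat body markers was 10790 to 19520 CPM in WT, 6415 to 15830 CPM in HFD and 10470 to 24650 CPM in Sk2 libraries. Among these markers Fbp1 was at 0 in 19 libraries and Fbp2 in 5. The 16 ovary markers, yolk protein genes included, summed to 15090 to 45700 CPM in WT, 5571 to 34580 CPM in HFD and 15330 to 58500 CPM in Sk2 libraries. Among them Yp1, Yp2 and Yp3 had medians of 10800, 5980 and 5840 CPM. Cp38 was at 0 in 24 libraries, Cp19 in 23 and Vm26Aa in 21, while osk and vas were at 0 in none. In bulk tissue, fewer cells of a type and less RNA per cell cannot be told apart.

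Members lay on all major chromosome arms, with 12 on 2L, 12 on 2R, 17 on 3L, 21 on 3R and 11 on X. They were short, with 327 to 2078 exonic bases and a median of 783, against 1513 for all genes of the table. By textbook classification 45 belonged to families shared with bacterial ribosomes and 28 to proteins particular to mitochondria. Reads were counted by strand, so the 41 members with an antisense gene over an exon were counted apart from it. mRpL53 had 0 counts in every library. All of its exonic bases are shared on the same strand with CG33155, and reads over 2 genes were not counted, so this says nothing of its expression. mRpL13 shared 35.2% of its exonic bases with CG10602 and is less certain for the same reason.

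Members were expressed at a moderate level. Per length, as RPKM, which is CPM divided by the exonic length in kilobases, the median member stood at 33.4, above 78.4% of all genes tested, whose median was 9.49. The nuclear subunits of the respiratory chain had a median of 436 RPKM and the cytoplasmic ribosomal proteins one of 552 RPKM. The 3 highest members were mRpS7 (283 ± 94.0 RPKM, SD over 34 libraries), mRpS5 (233 ± 87.8) and mRpS30 (173 ± 62.0). mRpS7 belongs to the bacterial family that binds the head of the small subunit. The 3 lowest were mRpL36 (8.24 ± 3.74), mRpL39 (9.48 ± 2.26) and mRpL43 (10.0 ± 1.75). The ranges of neighbours in this order overlap throughout, although mRpS7 and mRpL36 lie well apart in every library.

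**Figure D1:**
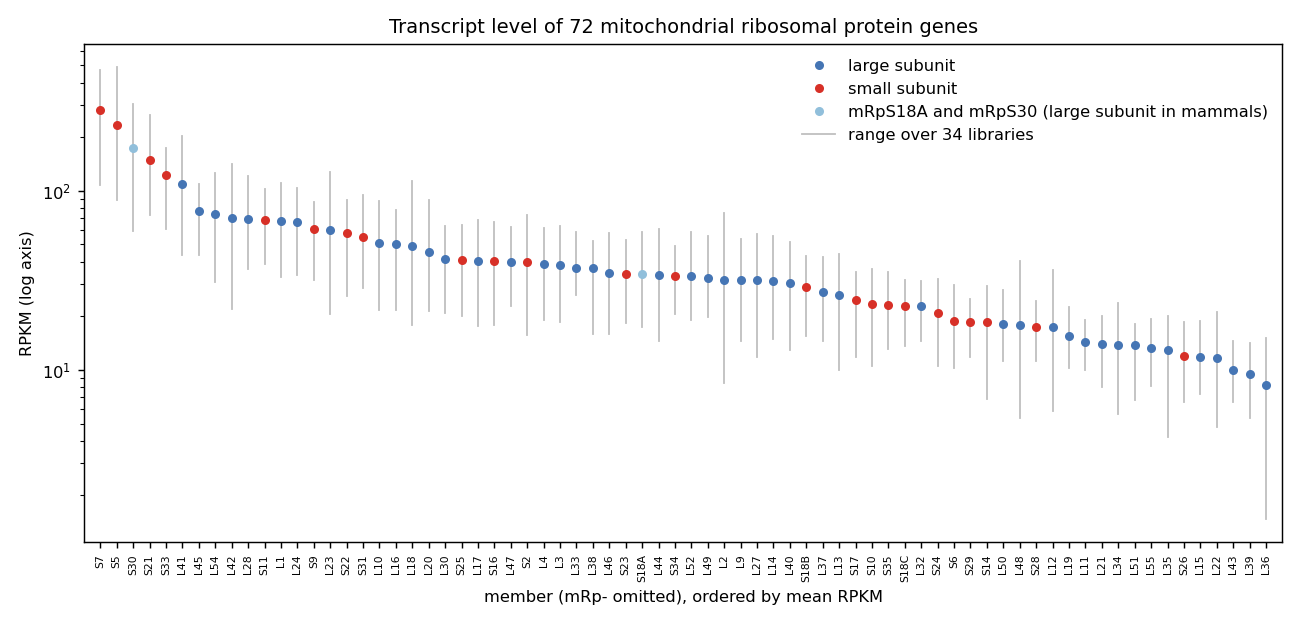
Mean RPKM (points, log axis) of 72 members over 34 libraries, with the range over libraries (grey lines), ordered by level and coloured by subunit. The members run from 283 RPKM for mRpS7 to 8.24 RPKM for mRpL36, and small and large subunit genes are mixed along the order.

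Across the 6 groups, 64 of 72 members had their highest mean in Sk2-TRF, and 54 had their lowest in HFD-TRF. The highest group mean was 1.76 times the lowest in the median member, with 3.87 times for mRpL18 at one end and 1.14 times for mRpS26 at the other. Members took 0.255% to 0.362% of counts in WT libraries, 0.176% to 0.336% in HFD libraries and 0.343% to 0.476% in Sk2 libraries. The Sk2-TRF range began at 0.381%, above every WT library.

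**Figure D2:**
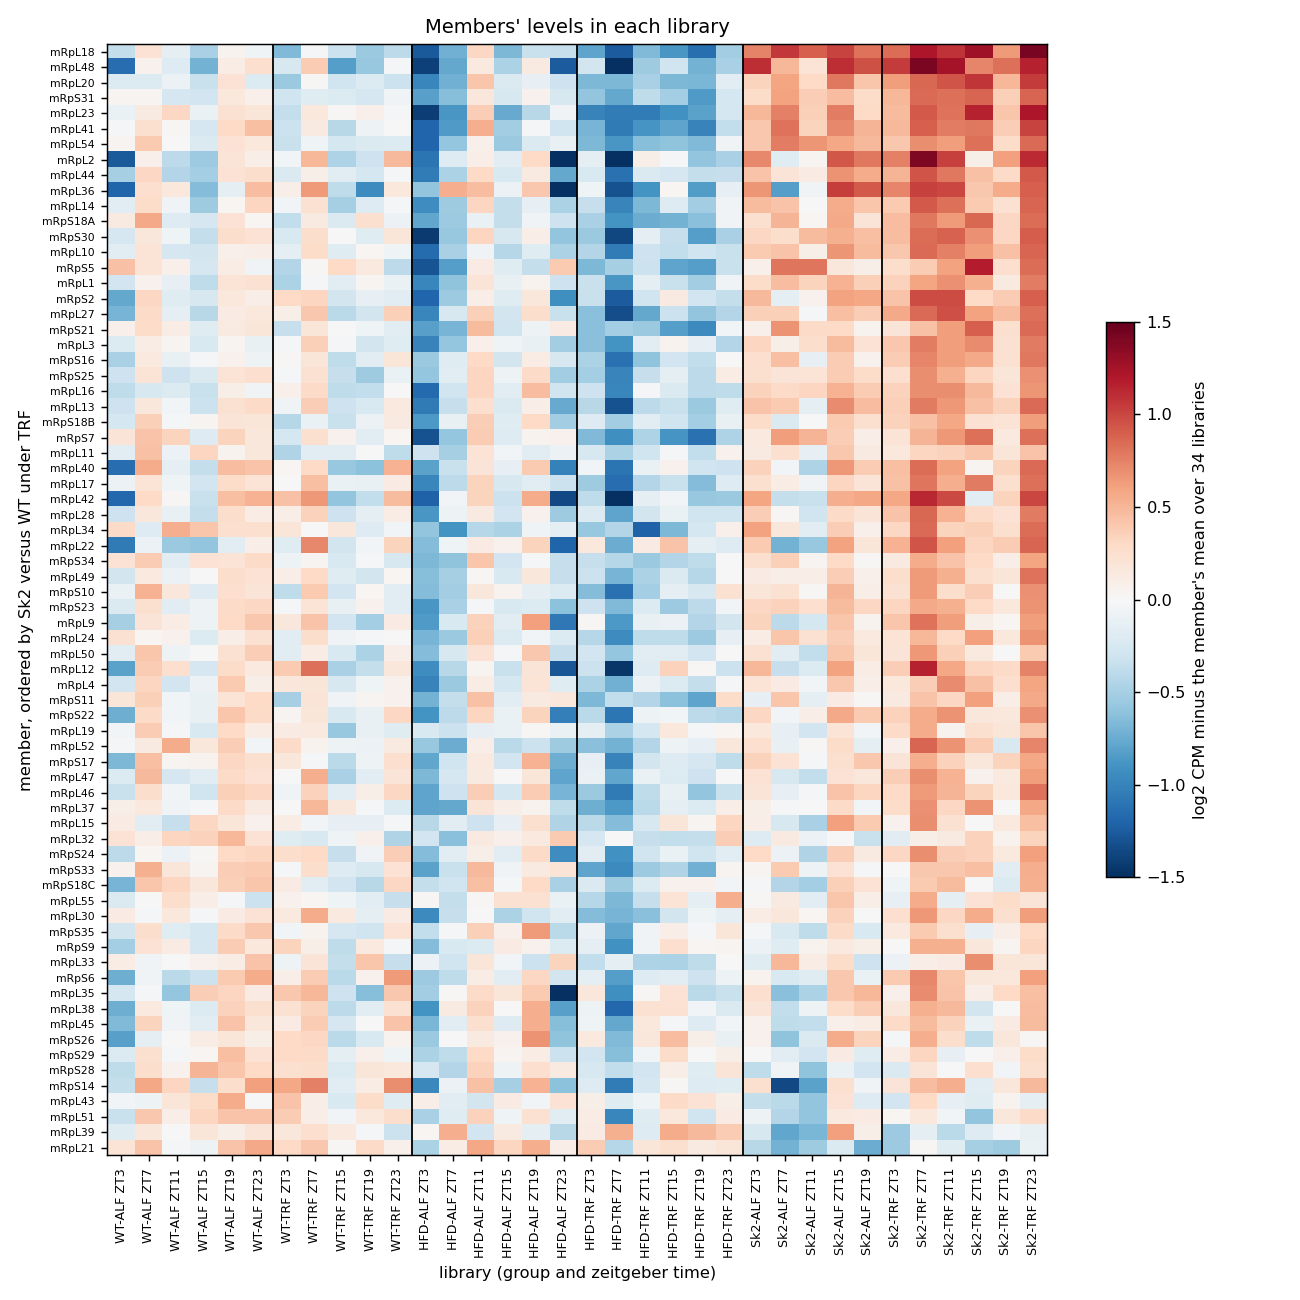
Log2 CPM of 72 members (rows) in 34 libraries (columns), minus each member's mean, with groups divided by black lines. In 64 of 72 members the mean is highest in Sk2-TRF. HFD-ALF at ZT3 and HFD-TRF at ZT7 are blue nearly throughout, with a mean log2 CPM of 3.95 and 3.88.

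Sk2 flies were compared with WT flies under the same regimen. Under TRF, 32 of 72 members were higher in Sk2 flies and 1 was lower at an adjusted p under 0.05 (edgeR's quasi-likelihood test, Benjamini-Hochberg over all 9996 genes tested). Among all genes tested 12.3% were higher and 12.7% lower. The median log2 fold change of the members was 0.44, against −0.05 for all genes, and 66 of 72 estimates were positive. The members called were 20 of 46 tested in the large subunit, 10 of 24 in the small subunit, and mRpS18A and mRpS30, which are named for the small subunit but sit in the large one in mammals. They included 22 of 45 members of bacterial families and 10 of 27 particular to mitochondria. Sk2 libraries were also deeper than WT libraries. Of 18 flight muscle markers, 6 were called lower under ALF (median −0.28), and 4 lower and 2 higher under TRF (median −0.20). Their sum was 27680 to 61540 CPM in Sk2 and 32580 to 65420 CPM in WT libraries. Of 7 fat body markers tested, 2 were called higher under each regimen. The part of depth or of these markers in the members' differences was not tested. By arm, the members called higher were 10 of 12 on 2L, 6 of 11 on X, 4 of 11 on 2R, 6 of 17 on 3L and 6 of 21 on 3R, where 10.5% to 13.5% of all genes on each arm were, and the difference between arms was not tested.

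mRpL18 changed most. It belongs to the bacterial family of large subunit proteins at the central protuberance, and its single exon lies on 2R at 12756434 to 12757173 (dm6, plus strand). Its level was 19.8, 31, 25, 21.2 and 23.8 CPM in WT-TRF at ZT3, ZT7, ZT15, ZT19 and ZT23, and 48.7, 69.3 and 84.2 CPM as lowest, median and highest of Sk2-TRF. Every Sk2-TRF library stood above every WT-TRF library, and the log2 fold change was 1.47 (SE 0.19, adjusted p = 1.36e-06). Under ALF it was at 22.2, 29.1 and 36.3 CPM as lowest, median and highest of WT and at 52.2, 65.0, 58.0, 63.1 and 55.2 CPM in Sk2 at ZT3 to ZT19. The groups again did not overlap, with a log2 fold change of 1.02 (SE 0.19, adjusted p = 0.000147). The gene overlaps ox on the other strand.

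mRpL48, a mitochondrial large subunit protein, was at 10.1, 15.7, 6.80, 8.11 and 11.8 CPM in WT-TRF and at 19.9, 25.8 and 32 CPM as lowest, median and highest of Sk2-TRF. These groups were apart, and the log2 fold change was 1.28 (SE 0.28, adjusted p = 0.00121). Under ALF it was at 5.42 to 14.3 CPM in WT and 25.9, 17, 13.8, 25.9 and 23.2 CPM in Sk2, where the Sk2 library at ZT11 fell inside the WT range. The log2 fold change there was 1.0 (SE 0.27, adjusted p = 0.00751).

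mRpL20, whose bacterial relative acts early in assembly of the large subunit, was at 17.2, 25.6, 20.5, 21.8 and 20.1 CPM in WT-TRF and at 35.6, 47.2 and 53.2 CPM as lowest, median and highest of Sk2-TRF. It differed by 1.12 (SE 0.17, adjusted p = 1.46e-05) on the log2 scale. Its ALF groups were also apart, at 20.1 to 29.3 CPM in WT and 31 to 43.6 CPM in Sk2, with a log2 fold change of 0.62 (SE 0.17, adjusted p = 0.00695). mRpS31, a small subunit protein particular to mitochondria, was at 53.7, 58.4, 57.3, 55.2 and 63.8 CPM in WT-TRF and at 84.9 to 121 CPM in Sk2-TRF. Its log2 fold change was 0.92 (SE 0.14, adjusted p = 1.46e-05) under TRF and 0.43 (SE 0.14, adjusted p = 0.0237) under ALF.

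Of all members, mRpL18, mRpL20, mRpS31 and mRpS30 were higher in each of the 11 Sk2 libraries than in any of the 11 WT libraries, a pattern that 3% of all genes tested showed. mRpL18 and mRpS31 also exceeded all 12 HFD libraries, as did 2.01% of all genes. Within TRF alone, 20 members lay above WT in every Sk2 library, a pattern shown by 7.87% of all genes, and 1 lay below, as did 7.02% of all genes. Within ALF, 7 lay above, against 6.05% of all genes, and 1 below, against 5.93%.

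mRpL21 went the other way. It is a large subunit protein of a bacterial family, with 2 exons on 3L at 19253290 to 19255061. It was at 28, 29.9, 23, 27.8 and 23.8 CPM in WT-TRF and at 15.6, 18 and 22.9 CPM as lowest, median and highest of Sk2-TRF, so that the groups just failed to meet. Its log2 fold change was −0.51 (SE 0.16, adjusted p = 0.0198). Under ALF it was at 17, 13.8, 15.6, 19.5 and 13.5 CPM in Sk2 against 21.5 to 33.8 CPM in WT, a log2 fold change of −0.78 (SE 0.16, adjusted p = 0.000687).

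**Figure D3:**
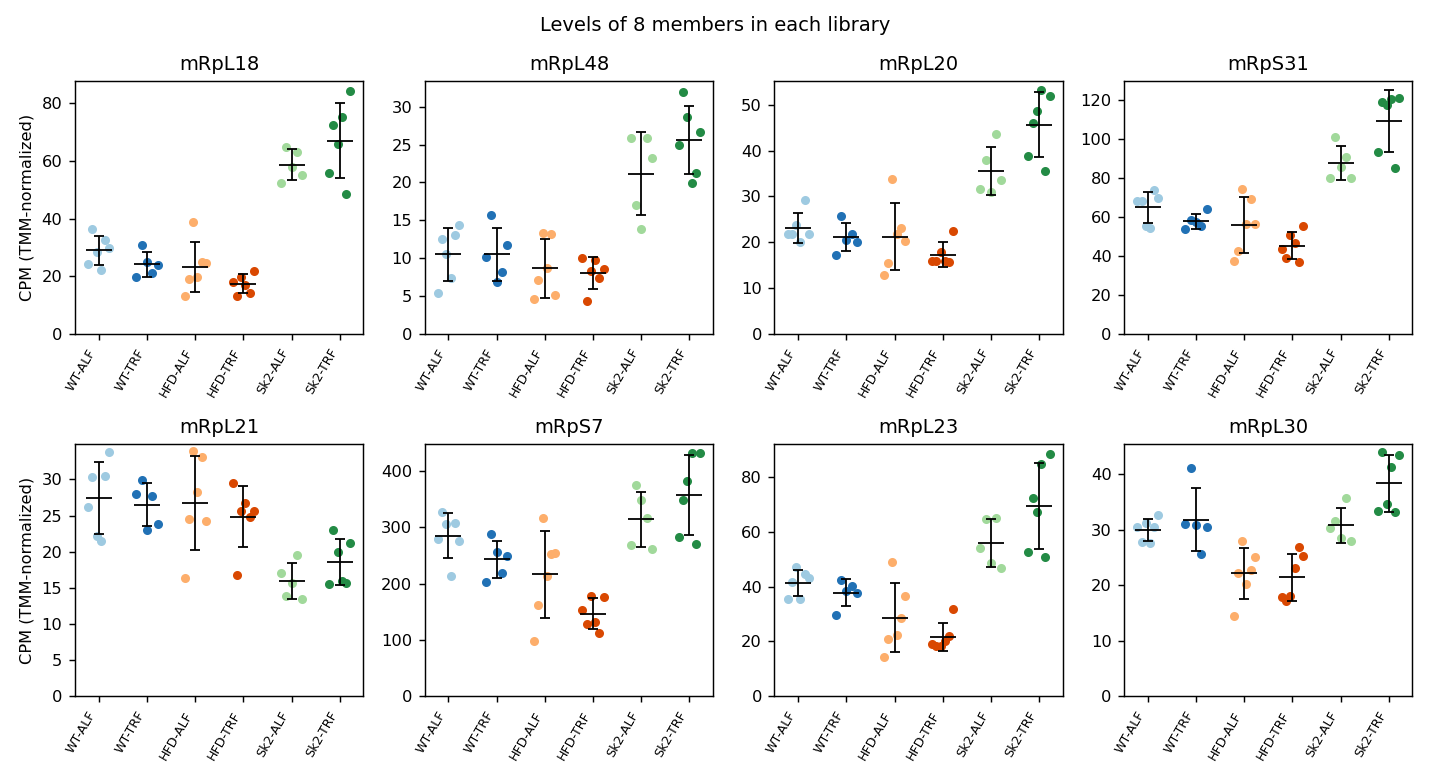
TMM-normalized CPM of 8 members in each library (points), with the mean and SD of each group (black). mRpL18, mRpL20 and mRpS31 stand higher in both Sk2 groups than in WT, mRpL21 lower, and mRpS7, mRpL23 and mRpL30 lie lowest in the HFD groups.

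Other members called under TRF had smaller changes. mRpL23, whose relatives line the exit of the nascent chain tunnel, was at 29.7, 42.5, 38.4, 40.2 and 37.6 CPM in WT-TRF and at 50.7 to 88.2 CPM in Sk2-TRF, a log2 fold change of 0.88 (SE 0.21, adjusted p = 0.0027). It lies 674.2 kb from the Sk2 gene, on the same arm. mRpS35 lies nearer, at 266.2 kb, and was not called, while mRpL20 lies 9970.1 kb away. A relation to this distance was not tested. mRpL54, a large subunit protein particular to mitochondria, was at 37.7, 45.6, 39.6, 40.9 and 41.2 CPM in WT-TRF and at 57.5, 75.4 and 86 CPM as lowest, median and highest of Sk2-TRF. These groups were well apart, with a log2 fold change of 0.85 (SE 0.16, adjusted p = 0.000232). mRpL10, a protein of the stalk base, was at 38.2 to 52.7 CPM in WT-TRF and 57.4 to 79.2 CPM in Sk2-TRF, a log2 fold change of 0.67 (SE 0.15, adjusted p = 0.00157). mRpL44, which has a ribonuclease III fold in mammals and is mutated in a human cardiomyopathy, was higher by 0.78 (SE 0.21, adjusted p = 0.00641). mRpL3, near the catalytic centre in bacteria, was higher by 0.61 (SE 0.16, adjusted p = 0.00667). The remaining members called higher lay between 0.39 for mRpL19 and 0.86 for mRpL41.

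Under ALF, 7 of 72 members were higher in Sk2 flies and 3 were lower, where 10.2% and 12.7% of all genes tested were. The count higher is near the share over all genes, and the count lower is under it. The median log2 fold change was 0.12, with 50 of 72 positive. mRpL16, which lies near the tRNA sites in bacteria, was at 39.7, 44.4 and 54.9 CPM as lowest, median and highest of WT-ALF and at 65.7, 63.1, 64.8, 74.2 and 67.1 CPM in Sk2-ALF. The groups were apart, with a log2 fold change of 0.55 (SE 0.19, adjusted p = 0.0296). mRpL54 was higher by 0.48 and mRpL10 by 0.46. All 7 higher under ALF (mRpL18, mRpL48, mRpL20, mRpL16, mRpL54, mRpL10 and mRpS31) were among the 32 higher under TRF, or 21.9% of that list. This overlap was not set against that of all genes. These comparisons share no library but come from a single fit. The 3 lower were mRpL21, mRpS28 and mRpL43. mRpS28 was at 9.04, 11.4, 7.74, 11 and 9.65 CPM in Sk2-ALF and at 9.10, 14.4 and 16.8 CPM as lowest, median and highest of WT-ALF, which overlap, with a log2 fold change of −0.50 (SE 0.15, adjusted p = 0.0175). mRpL43 was at 6.01, 5.85, 5.14, 9.01 and 6.75 CPM in Sk2-ALF and at 7.33 to 11.4 CPM in WT-ALF, where the Sk2 library at ZT15 lay inside the WT range. It only just passed, at an adjusted p of 0.05 (log2 fold change −0.41), and its call was lost in 8 of 9 other settings and in 30 of 34 fits without 1 library. With libraries scaled to their total alone, 14 members were called higher and 2 lower.

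HFD flies were compared with WT flies to see the effect of diet in the same strain. No member was higher at an adjusted p under 0.05 under either regimen (edgeR, with 0 members higher at an unadjusted p under 0.05 and 0 by DESeq2). Among all genes 9.42% were higher under ALF and 5.73% under TRF. Under ALF, 7 of 72 members were lower, against 7.17% of all genes, and under TRF 10 of 72 were, against 4.74%. The count under ALF is near the share over all genes. The median log2 fold change was −0.25 under ALF, against −0.06 for all genes, and −0.34 under TRF, against −0.02. Positive estimates numbered 6 and 5 of 72. The fat body marker sum also stood lower in HFD libraries (6415 to 15830 CPM against 10790 to 19520 CPM in WT). So did the ovary sum, yolk protein genes included (5571 to 34580 CPM against 15090 to 45700 CPM), while most HFD libraries were deeper. Neuron markers stood higher under ALF, where 8 of 10 were called higher with a median of 1.43 and their sum was 215 to 922 CPM in HFD-ALF against 169.5 to 290.4 CPM in WT-ALF. In HFD-ALF the neuron sum was highest at ZT3, the library of that group with the lowest mean of the members. In HFD-TRF it was highest at ZT23 (411.8 CPM), the library of that group with the highest mean of the members. HFD-ALF at ZT23 had a neuron sum of 782.1 CPM and a mean log2 CPM of the members of 4.26, against 3.95 at ZT3 and 4.92 at ZT11. The ovary sum was 8296 CPM in HFD-ALF at ZT3 and 6850 CPM at ZT23. In HFD-TRF it was lowest at ZT7 (5571 CPM), where the mean of the members was also lowest, and 13210 CPM at ZT23, where that mean was highest. The flight muscle sum under ALF was 27710 to 52890 CPM in HFD and 32580 to 65420 CPM in WT libraries. Under TRF 0 of 10 neuron markers were called, with a median of 0.01. Of 8 haemocyte markers 1 was called lower under each regimen, with medians of −0.37 and −0.38. No neuron or haemocyte marker was at 0 in any library. The part of any of these in the differences was not tested.

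mRpL34, a small large-subunit protein of a bacterial family, had the largest difference under ALF. It was a low gene, at 3.75, 5.18 and 6.28 CPM as lowest, median and highest of WT-ALF and 2.30, 3.13 and 4.10 CPM in HFD-ALF. The groups overlapped slightly, and the log2 fold change was −0.68 (SE 0.18, adjusted p = 0.0105). mRpL30 was at 27.6, 30.5 and 32.6 CPM in WT-ALF and at 14.4, 22.5 and 28 CPM in HFD-ALF, where a single HFD library reached the WT range. Its log2 fold change was −0.44 (SE 0.13, adjusted p = 0.0228). mRpL52, which is particular to mitochondria, was at 17.4, 19.9 and 26.3 CPM in WT-ALF and at 10.6, 12.9 and 19.1 CPM in HFD-ALF. A single HFD library, at ZT11, reached the WT range, and the log2 fold change was −0.60 (SE 0.17, adjusted p = 0.016). mRpL54 differed by −0.48, mRpS23 by −0.46, mRpS18A by −0.45 and mRpS34 by −0.40. In 5 of these 7 members, HFD-ALF at ZT3 was the lowest library of its group.

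Under TRF, mRpL23 fell most. It was at 29.7, 42.5, 38.4, 40.2 and 37.6 CPM in WT-TRF and at 18.4, 19.7 and 31.7 CPM as lowest, median and highest of HFD-TRF. Only the HFD library at ZT23 reached the WT range, and the log2 fold change was −0.80 (SE 0.21, adjusted p = 0.0132). mRpS7 was at 203, 288, 256, 220 and 250 CPM in WT-TRF and at 112, 143 and 178 CPM in HFD-TRF. These groups were apart, with a log2 fold change of −0.73 (SE 0.19, adjusted p = 0.0147). mRpL27, whose bacterial relative reaches into the catalytic centre, differed by −0.72 (SE 0.20, adjusted p = 0.0187), and mRpL30 by −0.57 (SE 0.14, adjusted p = 0.00794). mRpL17 was at 42.1, 57.9, 39.5, 39 and 45.8 CPM in WT-TRF and at 19.1, 30.2 and 36.9 CPM as lowest, median and highest of HFD-TRF, again apart, with a log2 fold change of −0.61 (SE 0.17, adjusted p = 0.0181). mRpL41 differed by −0.66 and mRpL46 by −0.60, and mRpS33, mRpS18A and mRpL24 by −0.55 to −0.46. By subunit, 7 of 46 large and 2 of 24 small subunit members were called, besides mRpS18A. Only mRpL10, mRpS7 and mRpL17 had all HFD-TRF libraries below all WT-TRF libraries, as did 2.22% of all genes. Of these members, mRpL10 was not called in this comparison.

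The 2 lists of lower members shared mRpS18A and mRpL30, which is 28.6% of the 7 and 20% of the 10. That overlap was not set against the one of all genes. The number of calls in HFD flies rested on single libraries. For HFD versus WT under ALF, the 7 calls became 1 without WT-ALF at ZT19, 2 without WT-ALF at ZT7 or ZT23 or HFD-ALF at ZT3, and 3 without WT-ALF at ZT11, HFD-ALF at ZT15, Sk2-ALF at ZT11 or WT-TRF at ZT3, ZT15, ZT19 or ZT23. They became 4 without WT-ALF at ZT15, WT-TRF at ZT7 or HFD-ALF at ZT7. For HFD versus WT under TRF, the 10 calls became 0 without WT-TRF at ZT7 (edgeR, 15 members at an unadjusted p under 0.05), 3 without HFD-TRF at ZT7 and 4 without WT-TRF at ZT23. They became 5 without WT-TRF at ZT19 or HFD-TRF at ZT19, 6 without HFD-TRF at ZT11 or ZT15, and 17 without HFD-TRF at ZT23. mRpS18A under ALF was called in none of 9 other settings. The median under TRF stayed between −0.40 and −0.23 in all fits without 1 library.

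**Figure D4:**
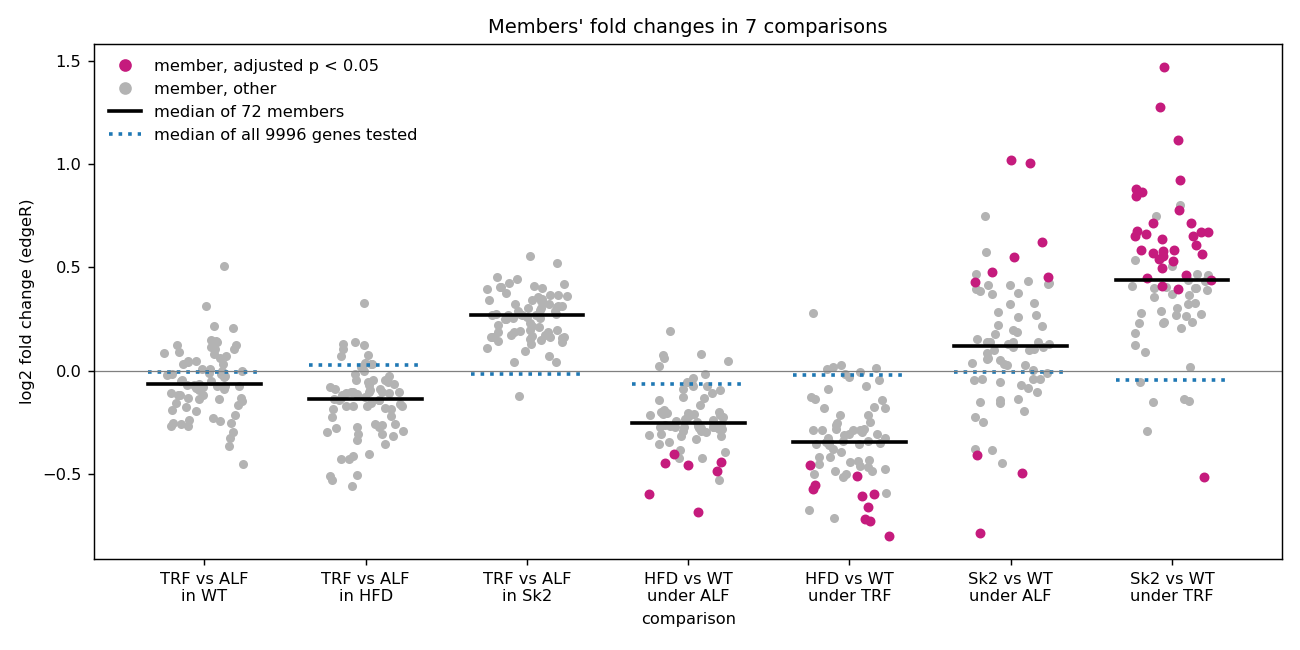
Log2 fold change of each of 72 members in 7 comparisons (points, coloured at an adjusted p under 0.05), with the median of the members (black) and of all 9996 genes tested (dotted). The members lie lowest in HFD versus WT and highest in Sk2 versus WT under TRF, where 33 are coloured. In TRF versus ALF none is coloured, and in Sk2 flies 71 of 72 points lie above 0.

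TRF was compared with ALF within each model. In WT flies no member passed an adjusted p under 0.05 with edgeR, and 2 had an unadjusted p under 0.05, as with DESeq2. Among all genes 0% passed. By the rule of the study for a changed gene (a level at least 25% above that of the other group, with an unadjusted p of at most 0.05), 0 of 72 members were higher and 2 lower, against 2.72% and 3.24% of all genes. The count lower is near that share. The median was −0.07 and 24 of 72 estimates were positive. That sign was not stable, since the median was 0.01 without WT-ALF at ZT23. mRpL32, whose precursor is cleaved by a mitochondrial protease in yeast and mouse, had the smallest p. It was at 16.8, 18.9 and 22.1 CPM as lowest, median and highest of WT-ALF and at 13.7, 13.3, 14.9, 16.5 and 11.4 CPM in WT-TRF. The groups just failed to meet, which held downwards for 0.83% of all genes, and the log2 fold change was −0.45 (SE 0.15, adjusted p = 0.421). mRpL11 differed by −0.36 (SE 0.13, adjusted p = 0.486) and mRpL54 by −0.33 (SE 0.16, adjusted p = 0.649).

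In HFD flies, 0 members passed the adjusted p with edgeR or DESeq2, where 0.06% of all genes did with edgeR. At an unadjusted p under 0.05 there were 9 with edgeR, all lower, and 11 with DESeq2, and 3 with edgeR fitted to the HFD groups alone. That rule of the study took 0 of 72 members higher and 7 lower, against 4.02% and 7.32% of all genes, and the 7 are near that share. The median was −0.14, against 0.03 for all genes, and 11 of 72 estimates were positive. It was −0.03 without HFD-ALF at ZT19 and −0.22 without HFD-ALF at ZT3. Of 10 neuron markers, 8 were lower under TRF by the same rule and 0 at the adjusted p, with a median of −1.07 and sums of 169.3 to 411.8 CPM against 215 to 922 CPM under ALF. Their part in the members' values was not tested. mRpS7 was at 98.9, 233 and 317 CPM as lowest, median and highest of HFD-ALF and at 112, 143 and 178 CPM in HFD-TRF. HFD-ALF at ZT3 lay below every HFD-TRF library and HFD-ALF at ZT7 within their range, and the log2 fold change was −0.56 (SE 0.19, adjusted p = 0.215). mRpS33 was at 33.2, 59.9 and 81.4 CPM in HFD-ALF and 29.9, 37.5 and 59.8 CPM in HFD-TRF, with a log2 fold change of −0.53 (SE 0.17, adjusted p = 0.207). mRpL27 differed by −0.51 (SE 0.19, adjusted p = 0.24).

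In Sk2 flies, 71 of 72 estimates were positive, with a median of 0.27 against −0.01 for all genes, of which 48.0% were positive. Again 0 members passed the adjusted p with edgeR or DESeq2, and 0.08% of all genes did with edgeR. At an unadjusted p under 0.05 there were 16 with edgeR and 19 with DESeq2. That rule of the study took 13 members higher and 0 lower, against 2.79% and 3.94% of all genes. Total counts were 17845999 to 26410549 in Sk2-TRF and 10870706 to 18944737 in Sk2-ALF. The ovary sum was 23310 to 58500 CPM in Sk2-TRF and 15330 to 25830 CPM in Sk2-ALF. The fat body sum was 12260 to 19300 against 10470 to 24650 CPM, and the flight muscle sum 27680 to 48050 against 30820 to 61540 CPM. The part of depth or of these markers in the members' values was not tested. With libraries scaled to their total alone, 2 members rather than 16 had an unadjusted p under 0.05, and the median was 0.18. The setting of 32 libraries also left out WT-ALF at ZT11 and Sk2-TRF at ZT23, the counterparts of the 2 omitted. It gave 5, and a block for time point gave 7. The median was 0.19 without Sk2-TRF at ZT23 alone and 0.33 without Sk2-ALF at ZT15. mRpL17 was at 50.0, 45.5, 40.6, 52.8 and 48.4 CPM in Sk2-ALF and at 50.0, 67.0 and 75.1 CPM as lowest, median and highest of Sk2-TRF. A single Sk2-TRF library, at ZT19, lay within the ALF range, and the log2 fold change was 0.45 (SE 0.17, adjusted p = 0.50). mRpL28 differed by 0.40 (SE 0.17, adjusted p = 0.539) and mRpS28 by 0.36 (SE 0.15, adjusted p = 0.554), both short of the threshold. mRpL27 alone had no overlap, at 27.2 to 37.5 CPM under ALF and 37.8 to 53.6 CPM under TRF, a pattern that 0.52% of all genes showed.

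Whether TRF acted differently in the 3 models was tested as an interaction. No member passed an adjusted p under 0.05 in any of the 3 contrasts, with edgeR or DESeq2. For Sk2 minus WT the median was 0.31, with 70 of 72 positive, and 10 members had an unadjusted p under 0.05 with either tool. There were 6 with libraries scaled to their total alone or over 32 libraries. A block for time point gave 5. All 10 were higher with edgeR, against 3.55% of all genes higher and 3.33% lower, and 0.01% passed the adjusted p. mRpL32 differed by 0.68 (SE 0.21, adjusted p = 0.56), mRpL11 by 0.51 and mRpL19 by 0.50. This contrast and the comparison of Sk2 with WT share the same libraries. For Sk2 minus HFD the median was 0.40, with 71 of 72 positive. Here 19 members had an unadjusted p under 0.05 with edgeR and 26 with DESeq2. The 19 were higher, against 6.05% of all genes higher and 6.45% lower, and 0.04% passed the adjusted p. mRpL27 had the smallest p, at 0.92 (SE 0.28, adjusted p = 0.218), followed by mRpS31 at 0.63 (SE 0.19) and mRpL17 at 0.73 (SE 0.23). For HFD minus WT, where the median was −0.10, 1 member, mRpL27 at −0.65, had an unadjusted p under 0.05 with edgeR, as 1 did with DESeq2. Among all genes 2.83% were higher, 5.15% lower and 0% past the adjusted p. mRpS16 and mRpL11 followed, at −0.36 (SE 0.23) and 0.28 (SE 0.18).

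TRF and ALF were also compared at each time of collection, where 1 library is set against 1 library and there is no replicate. In HFD flies 67 of 72 members were higher under TRF at ZT3 and 59 at ZT23, while 62 were lower at ZT7, 66 at ZT11 and 68 at ZT19. The median difference ran from −0.54 at ZT19 to 0.47 at ZT3 in log2 CPM. In Sk2 flies 66 members were higher under TRF at ZT7 and 70 at ZT11, with medians of 0.59 and 0.53, and 29 were higher at ZT15, with a median of −0.06. In WT flies 68 were lower at ZT19, with a median of −0.39, and 49 were higher at ZT3.

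**Figure D5:**
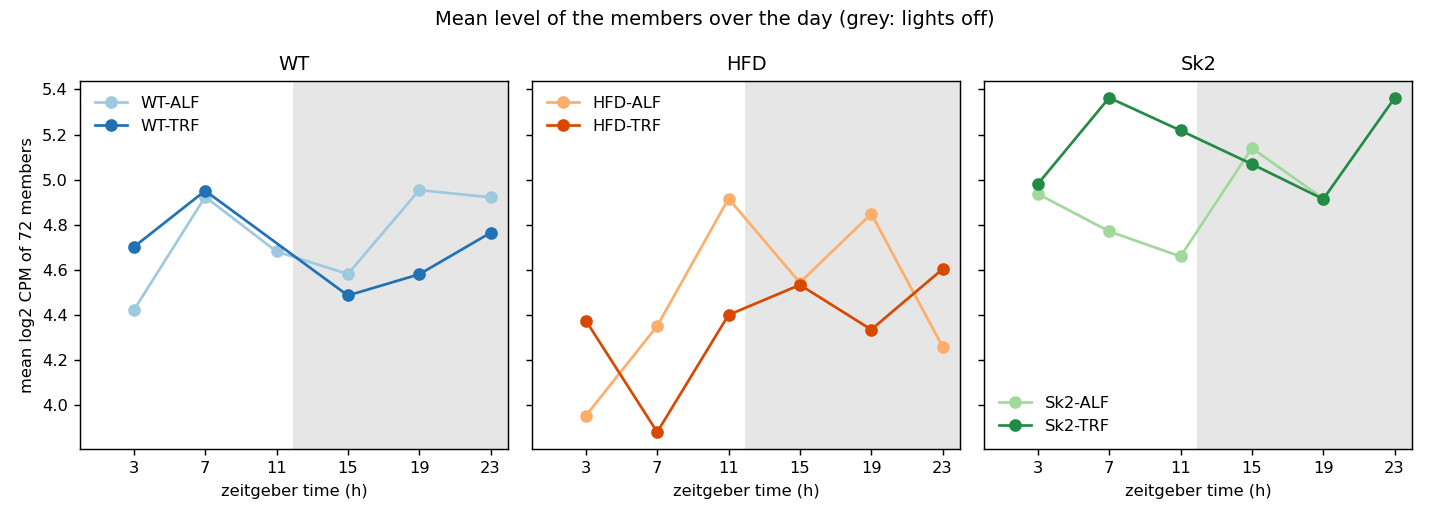
Mean log2 CPM of 72 members in each library against zeitgeber time (lights off from 12 h, grey), by model and regimen, without the 2 libraries left out. The HFD lines cross 2 times, and Sk2-TRF lies above Sk2-ALF at ZT7 and ZT11 and close to it at ZT3, ZT15 and ZT19.

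Time of day itself was tested over all groups, as a pattern common to the 6 groups. A daily pattern particular to a group lies outside this test. No member passed an adjusted p under 0.05 with edgeR, where 2.31% of all genes did, and 4 members had an unadjusted p under 0.05, against 15.7% of all genes. These were mRpS11, mRpS33, mRpL39 and mRpL23, with adjusted p-values from 0.235 to 0.312, and mRpS21 followed at 0.335. Night minus day gave 0 members at the adjusted p, against 0.38% of all genes, and 2 at an unadjusted p under 0.05, against 7.63%. The median difference was 0.08, with 66 of 72 positive. mRpL15 had the smallest p, at 0.26 (SE 0.09, adjusted p = 0.363), followed by mRpS28 at 0.18 and mRpL32 at 0.16. The difference of night and day between TRF and ALF gave 0 members, as 0% of all genes passed, and 2 at an unadjusted p under 0.05, mRpS26 at −0.59 and mRpL43 at −0.33, against 4.79%. mRpS6 followed at −0.41. DESeq2 was not run for these 3 tests.

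Members varied together from library to library. After group means were removed and each gene was scaled, the first principal component held 59.0% of the variance of the 72 members over 34 libraries, with the same sign for 71 of them. It held 18.3% over all genes tested, 80.7% over cytoplasmic ribosomal proteins and 79.4% over respiratory chain subunits. Over mitochondrial aminoacyl-tRNA synthetases, with the synthetase-like Slimp counted among them, it held 36.2%. These lists differ in level and number, and the libraries share depth and composition. The SD within groups had a median of 0.31 log2 units, against 0.34 for all genes. It was largest for mRpL36 (0.66), mRpL42 (0.60) and mRpL2 (0.58), and smallest for mRpL11 (0.20).

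Among members with known roles, mRpL12 and mRpS29 were not called in any comparison. mRpL12, the stalk protein that recruits translation factors and is needed for Cyclin D-driven growth in Drosophila, was at 6.82 to 15.6 CPM in WT-ALF, 4.34 to 15.1 CPM in HFD-TRF and 14.5 to 26.6 CPM in Sk2-TRF. mRpS29, a GTP-binding protein known in mammals as death-associated protein 3, had nearly level group means, the highest 1.17 times the lowest. The mRpS18 genes are 3 relatives of a single bacterial protein. mRpS18A and mRpS18B were called higher in Sk2 flies under TRF, by 0.71 (SE 0.16, adjusted p = 0.00157) and 0.56 (SE 0.16, adjusted p = 0.0115), and mRpS18C, at 8.73 to 14.4 CPM in WT-TRF and 10.1 to 16.8 CPM in Sk2-TRF, was not. mRpL24 was called lower in HFD flies under TRF, by −0.46 (SE 0.14, adjusted p = 0.0389), and higher in Sk2 flies under TRF, by 0.41 (SE 0.15, adjusted p = 0.0363). mRpS30 was higher by 0.67 (SE 0.21, adjusted p = 0.0196) in that comparison.

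Other genes of the pathway were taken from fixed lists. tko and bonsai, small subunit proteins under other symbols, were not called in any of the 7 comparisons. The list of mitochondrial translation factors also holds mTerf3, whose relative mTerf5 was listed under transcription. The list of mitochondrial aminoacyl-tRNA synthetases also holds the synthetase-like Slimp. In Sk2 versus WT under TRF, 12.3% of all genes were called higher and 12.7% lower. There, 2 of 9 genes on the translation factor list were higher and 1 lower. Of 16 genes on the synthetase list, 5 were higher and 2 lower. The lower counts are near the share over all genes. Of 11 genes of mitochondrial DNA upkeep and transcription 5 were higher, among them TFAM, which packs the mitochondrial genome, by 0.72 (SE 0.18, adjusted p = 0.00349). Of 61 nuclear respiratory chain subunits 23 were higher and 0 lower, with a median of 0.54. The 80 cytoplasmic ribosomal proteins differed in direction, with 1 higher, 17 lower and a median of −0.45. In HFD versus WT under TRF, where 4.74% of all genes were called lower, 35 of 61 respiratory chain subunits were lower, with a median of −0.76, and 0 of 80 cytoplasmic ribosomal proteins. For TRF versus ALF in Sk2 flies, 60 of 61 respiratory chain subunits had positive estimates (median 0.38). So did 9 of 9 genes on the translation factor list and 39 of 80 cytoplasmic ribosomal proteins. In HFD flies 60 of 61 respiratory chain subunits had negative estimates (median −0.35). So did 7 of 9 genes on the translation factor list and 27 of 80 cytoplasmic ribosomal proteins. None of these passed the adjusted p in TRF versus ALF. Genes of the mitochondrial genome had no row in the table, so the proteins that this ribosome makes were not analysed here.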

How the data were processed

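The deposited table held unnormalized read counts for each gene in 36 libraries, made by the authors. Per the file header, single-end reads were counted over exons with featureCounts 1.5.0-p1, by strand. The submitters' processing notes name STAR 2.5.3a and dm6, while the design text names another STAR version and build. The annotation in the file is of dm6. The test was edgeR 4.0.16 under R 4.3.3, with glmQLFit and glmQLFTest on 6 group means over 34 libraries after filterByExpr and TMM scaling, and Benjamini-Hochberg adjustment over 9996 genes. Log2 CPM used a prior count of 2. Totals per library ranged from 3329519 to 30682673 counts, and every tested member had at least 6 counts in every library used. Groups came from the labels, and time points were treated as a block only as an alternative. The fits were tested on simulated data. The other settings were all 36 and 32 libraries, RLE or total scaling, 2 other filters, only the groups compared, a time point block, DESeq2 1.42.0 and each library left out.

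Members and gene lists were chosen with earlier results of these data known. Members named were, for each comparison, up to 5 with the largest change in each direction at an adjusted p under 0.05, or otherwise the 3 with the smallest p, the 5 smallest for time of day, the 3 highest and lowest by RPKM, and 10 with known roles. Others named were chosen after their values were seen. Older symbols in the table were matched through RefSeq synonyms, and respiratory chain subunits were found by their current RefSeq symbols.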

Additional observations from a re-analysis of the deposited data

Results flagged for a closer look

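The gap of the highest or lowest library to its nearest neighbour, set against the range of its group, was tested in 252 cases. These were 40 named members, the mean log2 CPM of the 72 members tested and the share of counts of all 73, each in 6 groups. The gap was over Dixon's critical value in 12, and chance flags about 1 in 20. Of these, 9 fell on 2 libraries of the same group. HFD-TRF at ZT7 was low for the mean log2 CPM of the members (3.88, others 4.34 to 4.60), mRpL28 (45.3 CPM, others 63.6 to 72.9), mRpL21 (16.8 CPM), mRpS6 (6.38 CPM) and mRpL44 (16.3 CPM, others 27.6 to 30.6). HFD-TRF at ZT23 was high for mRpL54 (45.9 CPM, others 26.1 to 31.2), mRpL23 (31.7 CPM), mRpL20 (22.4 CPM) and mRpS11 (58.9 CPM, others 28.2 to 37.6). The other 3 were mRpL27 in Sk2-ALF at ZT11 (27.2 CPM), mRpS28 in WT-TRF at ZT15 (10.2 CPM) and mRpS18C in WT-ALF at ZT3 (7.17 CPM), all low. Members vary together, so these cases are not independent.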

How the results depend on the processing

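The counts of members called in Sk2 versus WT under TRF, and the 0 counts in the comparisons of TRF with ALF, in the 3 contrasts of TRF effects and in the 3 tests of time of day, stayed within 1.5 times of the values given under every setting tried. For HFD versus WT under ALF, the 7 calls became 3 over all 36 libraries, 3 where each library had to hold 10 counts or more, and 2 over 32 libraries and with only the groups compared. They ranged from 1 to 8 without 1 library. For HFD versus WT under TRF, the 10 became 5 with no filter on low counts and 3 with only the groups compared, and ranged from 0 to 17 without 1 library. For Sk2 versus WT under ALF, the 10 became 6 over all 36 libraries and 16 with total scaling, 9 of them among the 10. The cause was not tested. Of 48 gene results, 15 of the 24 called lost the call in at least 1 of the settings, and 1 of 2037 values changed sign: mRpL11 in the TRF effect, HFD minus WT, at −0.0035 over all 36 libraries. The median for TRF versus ALF ran from −0.07 to 0.01 in WT (0.01 over all 36 libraries), from −0.17 to −0.11 in HFD and from 0.18 to 0.29 in Sk2 flies over the 9 settings. The labels do not say whether libraries of a time point share a batch. In no comparison did every pair of the same time point deviate together (1 to 3 pairs of 5 or 6 with a correlation over 0.1, the most in TRF versus ALF in Sk2, with 3 of 5). With the time point as a replicate block, the calls were 6 and 11 in HFD versus WT and 11 and 30 in Sk2 versus WT, under ALF and TRF, and 0 in the other contrasts. At an unadjusted p under 0.05 the block gave 7 members against 16 without it in TRF versus ALF in Sk2, and 5 against 10 for Sk2 minus WT. DESeq2 and the block were added for the contrasts of TRF effects after the data were seen. A library of 3329519 counts resolves no level under 0.901 CPM, at 3 counts.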

Other observations

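In the 2 libraries that the study left out, members as a whole were inside the range of their groups, at 0.316% of counts in WT-TRF at ZT11 and 0.385% in Sk2-ALF at ZT23. In WT-TRF at ZT11, 14 of 72 members were above all 34 other libraries and 0 below, where 27.9% of all genes tested were above and 18.6% below. In Sk2-ALF at ZT23, 7 members were above and 0 below, where 20.2% of all genes were above and 10.5% below. Extreme values were thus common over the whole of these libraries. All 7 were among the 14: mRpL12, mRpL39, mRpS26, mRpL15, mRpL11, mRpL55 and mRpL22. The overlap was not set against that of all genes. mRpL39 was at 36.2 and 28.8 CPM in the libraries left out and at 6.09 to 16 CPM in the others. mRpL15 was at 30.3 and 25 CPM against 7.55 to 19.2 CPM, and mRpL12, the stalk protein, at 38.4 and 32.2 CPM against 4.34 to 26.6 CPM.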
